A study of Homo sapiens with 6 samples.

Results

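The genes described here encode the secreted Wnt ligands, their Frizzled receptors and co-receptors, the secreted antagonists, the AXIN scaffolds and the TCF/LEF transcription factors. Members were the probe sets whose single platform gene symbol is one of these gene names, which gave 99 probe sets for 45 genes out of 54675 probe sets and 19775 named genes in all. The genes FZD8, WNT3, WNT3A and TCF7 had no probe set with 1 symbol and were not analysed here. RNA came from a pair of lung adenocarcinoma cell lines derived from the parental line CL1. The CL1-5 line is labelled highly invasive and the CL1-0 line poorly invasive, and each was grown in serum-supplemented RPMI medium and hybridised as 3 biological repeats, 1 array each. The labels name no treatment or genetic change in either line, and each condition is represented by 1 line.

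Wnt proteins are secreted lipid-modified ligands that bind Frizzled receptors at the cell surface. In the canonical branch, a Frizzled receptor and LRP5 or LRP6 together recruit the AXIN scaffold, β-catenin escapes degradation, and TCF/LEF factors switch on target genes such as AXIN2. In other branches, ligands such as WNT5A act through Frizzled and ROR receptors on cell polarity, movement and calcium. In the lung, the pathway takes part in airway branching and in the renewal of alveolar cells.

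In CL1-5, the receptor gene FZD6 and the antagonist genes SFRP1 and DKK3 were far higher and the ligand gene WNT5A was higher. The antagonist gene DKK1, the ligand gene WNT9A, the receptor genes FZD1, FZD2 and FZD3 and the co-receptor gene LRP6 were lower. These decreases were at least 2-fold on the probe set used for each gene, and smaller on other tested probe sets where there were any. AXIN2 did not pass the test, and LEF1 was too dim to test. Of the 45 genes, 33 had a probe set that passed the filter on dim signals, and 8 of them rose and 10 fell in CL1-5 at an adjusted p under 0.05 (moderated limma test, p-values adjusted over 14828 genes by Benjamini-Hochberg). A similar part of all genes tested did so, as 23.3% were higher and 28.3% lower in CL1-5, or 51.6% in either direction. Without CL1-0 repeat 1 the number that rose was 5. In bulk RNA, fewer cells that express a gene and less RNA per cell cannot be told apart.

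With a change of at least 2-fold required as well, 4 members were higher, against 8.51% of all genes tested, and 6 were lower, against 7.6%. Those counts stand for 12.1% and 18.2% of the 33 tested members. Because dim genes could pass the filter only through the line in which they were brighter, these shares describe the tested genes and not the whole family. With a larger constant of 32 added to the signal, the number at least 2-fold lower was 3, and with the mean over all probe sets of a gene it was 2. The median log2 fold change was -0.0023 over the 33 members and -0.033 over all genes tested, and the median size without regard to sign was 0.33 and 0.32. The arrays of CL1-5 and CL1-0 did not overlap for 18 members, the same 18 that were called, or 54.5% of those tested, against 58.8% of all genes tested.

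The median signal of an array was 30.2 to 30.9 units, and precision is limited by having 3 arrays a line. Signals are in the deposited linear units and each gene is given through 1 probe set, so levels of different genes are not compared. The 40th percentile of an array, between 19.5 and 20.3 units, stands in for background, and a line whose mean lies at or under it is called dim. Fold changes are log2 values of CL1-5 over CL1-0 after a constant of 6.85 was added, so that the change of a dim gene is understated. Each line has n = 3 arrays, and SE is the standard error of the fit. The second principal component, with 4.42% of the variance, set repeat 3 of both lines apart from the other arrays. The 3′ to 5′ ratio of ACTB, which reflects RNA quality, was also highest in repeat 3, at log2 values of 0.91 in CL1-5 and 1.17 in CL1-0, against 0.31 and 0.40 in the other CL1-5 arrays and 0.53 and 0.44 in the other CL1-0 arrays. Of 10 lung epithelial markers with a probe set, 9 were tested and 6 of these, CDH1 among them, did not pass. The simple keratins KRT8 and KRT18 rose, and KRT19 was dim in both lines. EPCAM, dim in CL1-5, was at least 1.35-fold lower, and it passed the filter only through its CL1-0 arrays. The list summed to 4751 to 5574 units in CL1-5 and 499 to 517 in CL1-0, with KRT18 means of 4222 and 46.5. The lung lineage factor NKX2-1 was near background in both lines, with means of 25.0 and 26.9 units in CL1-5 and CL1-0. Of 5 endothelial markers, PECAM1 (1.11) and CLDN5 (1.59) rose, whereas the defining CDH5 and KDR were dim in both lines, and the summed signal was 231 to 251 units in CL1-5 and 105 to 124 in CL1-0. Of 4 leukocyte markers with a probe set, PTPRC, CD14 and LYZ were dim in both lines and CD3E was near background (means of 23.7 units in CL1-5 and 24.6 in CL1-0), with sums of 53.8 to 60.2 in CL1-5 and 60.2 to 62.5 in CL1-0. Of 8 fibroblast markers, LUM, PDGFRA and COL3A1 were dim in both lines and PDGFRB in CL1-5. The fibroblast markers COL1A1, COL1A2, DCN and THY1 were above the percentile in both lines and did not pass, with line means of 23.7 to 43.2 units in CL1-5 and 26.7 to 42.9 in CL1-0, and the whole list summed to 179 to 186 in CL1-5 and 194 to 205 in CL1-0.

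**Figure D1:**
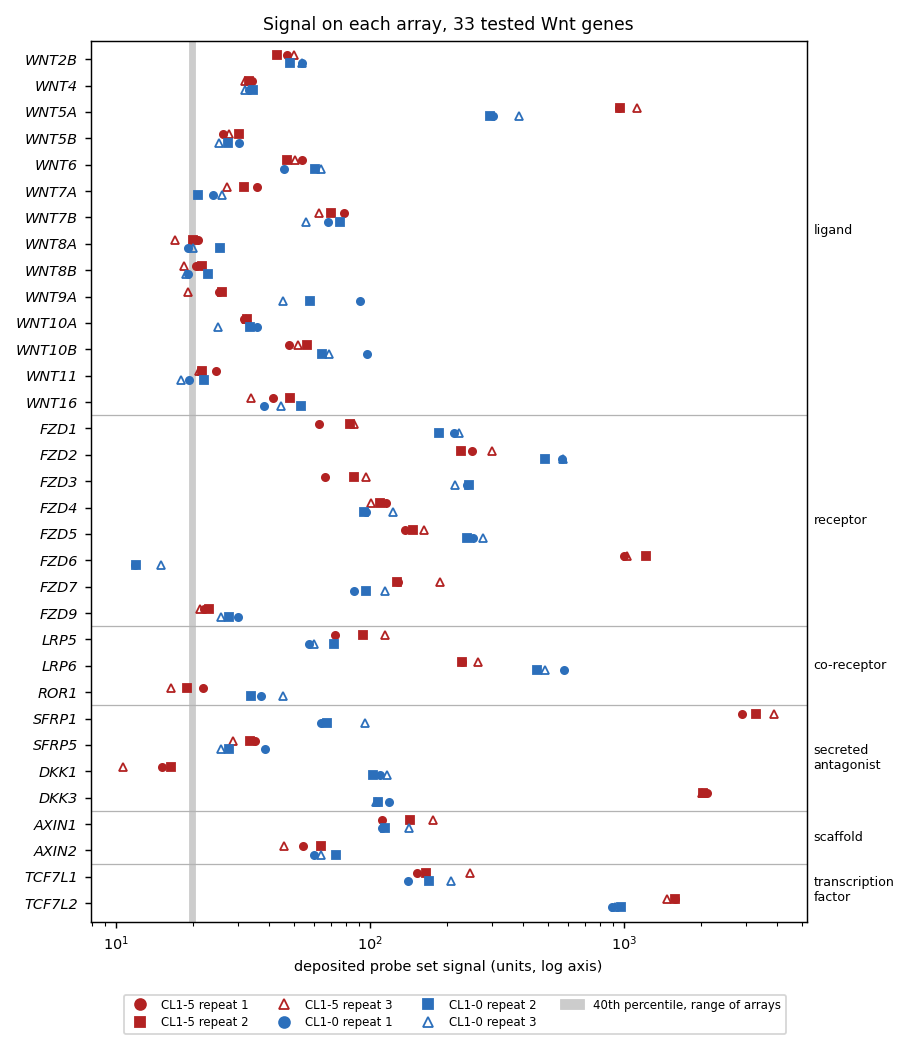
Deposited probe set signal (log axis) of the 33 tested genes on each array, in rows grouped by role, with CL1-5 above CL1-0 in each row, the repeat shown by marker shape and the 40th percentile of the arrays as a grey band. FZD6 lies at 998 to 1214 units in CL1-5 and below the band in CL1-0, whereas DKK1 lies below the band in CL1-5 and at 102 to 117 units in CL1-0.

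Promoter windows of 3 genes are shown because their genes are the members of largest change that have an entry in the promoter table used, 1 antagonist, 1 ligand and 1 receptor. They were taken from RefSeq on build GRCh38.p14 and run from 250 bases before to 50 after the annotated gene start, 5′ to 3′ on the gene's strand. Capitals mark matches to CTTTGA, the core of the motif bound by TCF/LEF factors, on either strand. The motif was chosen with the expression results known.
DKK1, chr10:52314031-52314330, plus strand: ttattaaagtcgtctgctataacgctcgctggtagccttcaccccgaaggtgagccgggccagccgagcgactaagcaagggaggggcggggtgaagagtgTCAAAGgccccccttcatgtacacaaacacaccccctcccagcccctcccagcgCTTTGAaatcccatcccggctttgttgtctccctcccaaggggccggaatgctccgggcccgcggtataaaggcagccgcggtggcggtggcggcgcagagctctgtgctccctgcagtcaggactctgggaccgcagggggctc
WNT5A, chr3:55487257-55487556, minus strand: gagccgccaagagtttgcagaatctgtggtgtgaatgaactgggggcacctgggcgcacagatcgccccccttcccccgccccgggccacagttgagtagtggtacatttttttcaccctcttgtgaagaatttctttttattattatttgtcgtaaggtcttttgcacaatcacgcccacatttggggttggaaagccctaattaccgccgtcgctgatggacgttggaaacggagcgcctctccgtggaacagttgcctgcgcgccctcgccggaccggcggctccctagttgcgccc
FZD1, chr7:91264183-91264482, plus strand: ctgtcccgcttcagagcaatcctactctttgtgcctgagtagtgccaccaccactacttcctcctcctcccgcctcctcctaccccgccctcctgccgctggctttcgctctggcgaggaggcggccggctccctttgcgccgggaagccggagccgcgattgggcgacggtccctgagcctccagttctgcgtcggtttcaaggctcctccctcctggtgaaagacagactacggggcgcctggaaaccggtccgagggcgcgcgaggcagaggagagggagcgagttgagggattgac

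The DKK1 window held 2 matches to CTTTGA, 1 on each strand, and it was the only window with a match among the 31 members in the table. Of all 27305 windows of the same length, 13.1% held at least 1. The AP-1 motif TGANTCA, also searched on both strands, had no match in the windows of those 31 members and at least 1 in 7.76% of all windows. The windows of the members held a median of 29 CpG dinucleotides, against 14 in all windows, with 20 for DKK1, 21 for WNT5A and 25 for FZD1. A match describes letters only, and its absence says nothing of the factor.

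Of 17 ligand genes with a probe set, 14 were tested, 2 rose, 2 fell and 10 did not pass, where 51.6% of all genes tested were called. WNT5A, the ligand best known for acting outside the β-catenin branch, had 954, 962 and 1121 units on the CL1-5 arrays, against 303, 296 and 384 on the CL1-0 arrays. The lowest CL1-5 array thus lay well above the highest CL1-0 array. The gene rose by a log2 fold change of 1.61 (SE 0.12, limma adjusted p = 5.9e-06), and its other probe set, with means of 305 ± 44.2 units in CL1-5 and 101 ± 13.2 in CL1-0 (SD), gave 1.53.

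WNT9A, a ligand with known roles in joint and skeletal development, had 25.3, 26.1 and 19.2 units in CL1-5, against 91.3, 58.0 and 45.1 in CL1-0. All CL1-5 arrays were close to the background percentile, and the CL1-0 arrays were far apart from each other. Its log2 fold change was -1.20 (SE 0.22, limma adjusted p = 0.0015). The other WNT9A probe set, dim in CL1-5, did not pass at -0.31 (adjusted p = 0.19 over 33777 probe sets), and the mean of both gave -0.75.

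The remaining called ligands changed little and their calls rested on single arrays. WNT10B, a ligand of the β-catenin branch, had 47.7, 56.2 and 52.0 units in CL1-5, against 97.0, 64.7 and 68.9 in CL1-0, and fell by 0.49 on the log2 scale (SE 0.15, limma adjusted p = 0.022). Leaving out CL1-5 repeat 1 ended the WNT10B call (-0.44, adjusted p = 0.069). Without CL1-0 repeat 1 the log2 fold change shrank to -0.33, though the call held. WNT7A, a ligand known from epithelia, had 35.7, 31.7 and 27.2 units in CL1-5, against 24.1, 20.9 and 26.1 in CL1-0, and rose by 0.33 (SE 0.11, limma adjusted p = 0.038). Leaving out a single array ended that call in 4 cases: CL1-5 repeat 1 (0.25, adjusted p = 0.13) or 2 (0.32, 0.10), and CL1-0 repeat 1 (0.34, 0.070) or 2 (0.26, 0.13). In the fit over all probe sets the WNT7A probe set did not pass (limma adjusted p = 0.051). Its log2 fold change was 0.47 on repeats 1 and 2 alone (limma adjusted p = 0.0085), and within repeat 3 the difference was 0.049.

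The 10 tested ligands that did not pass were WNT2B, WNT4, WNT5B, WNT6, WNT7B, WNT8A, WNT8B, WNT10A, WNT11 and WNT16. Their signals lay between 17.1 and 78.5 units over all arrays, and their log2 fold changes between -0.14 and 0.14. A probe set of WNT2B (fitted 0.42) and one of WNT5B (fitted 0.36), both dim in CL1-0, were called higher in CL1-5 in the fit over all probe sets, so these genes were not alike across their probe sets. WNT1, WNT2 and WNT9B failed the filter.

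The Frizzled receptors, the seven-pass membrane proteins that Wnt ligands bind, held a call in 7 of 8 tested genes, with 2 higher and 5 lower in CL1-5, against 51.6%, 23.3% and 28.3% of all genes tested. FZD6, a Frizzled known for its part in planar polarity, had 998, 1214 and 1019.9 units in CL1-5, against 11.8, 11.9 and 14.9 in CL1-0. It was bright on every CL1-5 array and below the background percentile on every CL1-0 array. Its level in CL1-5 was therefore at least 40.3-fold higher (limma adjusted p = 1.9e-09), or at least 21.3-fold with a constant of 32, and it rests on 1 probe set. FZD6 passed the filter only through its CL1-5 arrays, so a call could hardly go the other way. FZD7 rose far less. It had 128, 127 and 188 units in CL1-5, against 86.2, 96.0 and 114 in CL1-0. The log2 fold change was 0.54 (SE 0.17, adjusted p = 0.025), and its other probe set gave 0.49.

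Repeat 3 was the highest FZD7 array in both lines, and so were the 3′ to 5′ ratios given above, whose part in the values was not tested. FZD7 no longer passed when CL1-5 repeat 3 (0.36, limma adjusted p = 0.054), CL1-0 repeat 1 (0.45, 0.089) or CL1-0 repeat 2 (0.52, 0.075) was left out. On repeats 1 and 2 alone, without repeat 3 of either line, it did pass (0.46, limma adjusted p = 0.0054).

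FZD3, FZD1 and FZD2 were at least 2-fold lower in CL1-5. FZD3, which guides axon growth in the nervous system, had 66.5, 85.9 and 96.3 units in CL1-5, against 240.2, 243 and 216 in CL1-0 (log2 fold change -1.43, SE 0.14, limma adjusted p = 2.8e-05). FZD1 had 62.6, 82.8 and 86.2 units in CL1-5, against 213, 187 and 223 in CL1-0 (-1.36, SE 0.14, adjusted p = 3.7e-05). FZD2, a close relative of FZD1 and FZD7 in sequence, had 250.2, 227 and 301 units in CL1-5, against 569.5, 486 and 572 in CL1-0 (-1.05, SE 0.12, adjusted p = 1.0e-04). In none of the 3 genes did an array of one line reach the range of the other. All their other tested probe sets were called lower too, 3 for FZD3 at -0.70 to -0.96, 1 for FZD1 at -0.94 and 1 for FZD2 at -0.58, so each gene's size depended on the probe set.

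FZD5 had 136, 147 and 162 units in CL1-5, against 253, 239 and 277 in CL1-0, and fell by 0.76 on the log2 scale (SE 0.10, limma adjusted p = 2.9e-04). Its second, dimmer probe set did not pass (0.12), and the mean of both gave -0.32. FZD9 was near background in both lines, at 22.1, 23.2 and 21.2 units in CL1-5, against 30.0, 27.7 and 25.9 in CL1-0. Its small decrease (-0.26, SE 0.09, adjusted p = 0.036) did not hold on repeats 1 and 2 alone (adjusted p = 0.078) or without any 1 array other than CL1-0 repeat 3, with values of -0.21 and -0.26 without CL1-0 repeat 1 or 2 and of -0.26, -0.28 and -0.23 without CL1-5 repeat 1, 2 or 3. FZD4 did not pass (0.06, adjusted p = 0.74), with arrays between 94.0 and 123 units, though its other probe set, dim in CL1-0, was called higher (fitted 0.36). FZD10 failed the filter.

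All 3 tested co-receptors were called, where 51.6% of all genes tested were. The LRP pair went opposite ways, though the LRP5 call did not hold when some arrays were left out. LRP6, which signals with Frizzled in the β-catenin branch, had 230.0, 230.0 and 264 units in CL1-5, against 578, 452 and 488 in CL1-0, with no overlap. It fell by 1.04 (SE 0.11, limma adjusted p = 6.9e-05), and its other probe sets gave -0.79, which passed, and -0.70, which did not (adjusted p = 0.056). LRP5, its close relative, had 72.9, 93.2 and 114 units in CL1-5, against 57.4, 71.8 and 59.8 in CL1-0, and rose by 0.51 (SE 0.16, adjusted p = 0.026). The lowest CL1-5 array of LRP5 lay barely above the highest CL1-0 array.

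LRP5 no longer passed on repeats 1 and 2 alone (0.33, limma adjusted p = 0.087), without CL1-5 repeat 2 (0.50, 0.075) or 3 (0.36, 0.069) and without CL1-0 repeat 1 (0.45, 0.085) or 3 (0.48, 0.060). Its second probe set gave -0.04, and the mean of both 0.23 (adjusted p = 0.10). ROR1, a receptor tyrosine kinase that binds WNT5A, had 21.9, 18.9 and 16.4 units in CL1-5, against 37.1, 33.8 and 45.3 in CL1-0. It was thus dim in CL1-5, and it passed the filter through its CL1-0 arrays. ROR1 was at least 1.66-fold lower in CL1-5 (limma adjusted p = 5.3e-04), and its other 2 probe sets were also called lower. The related ROR2 failed the filter.

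**Figure D2:**
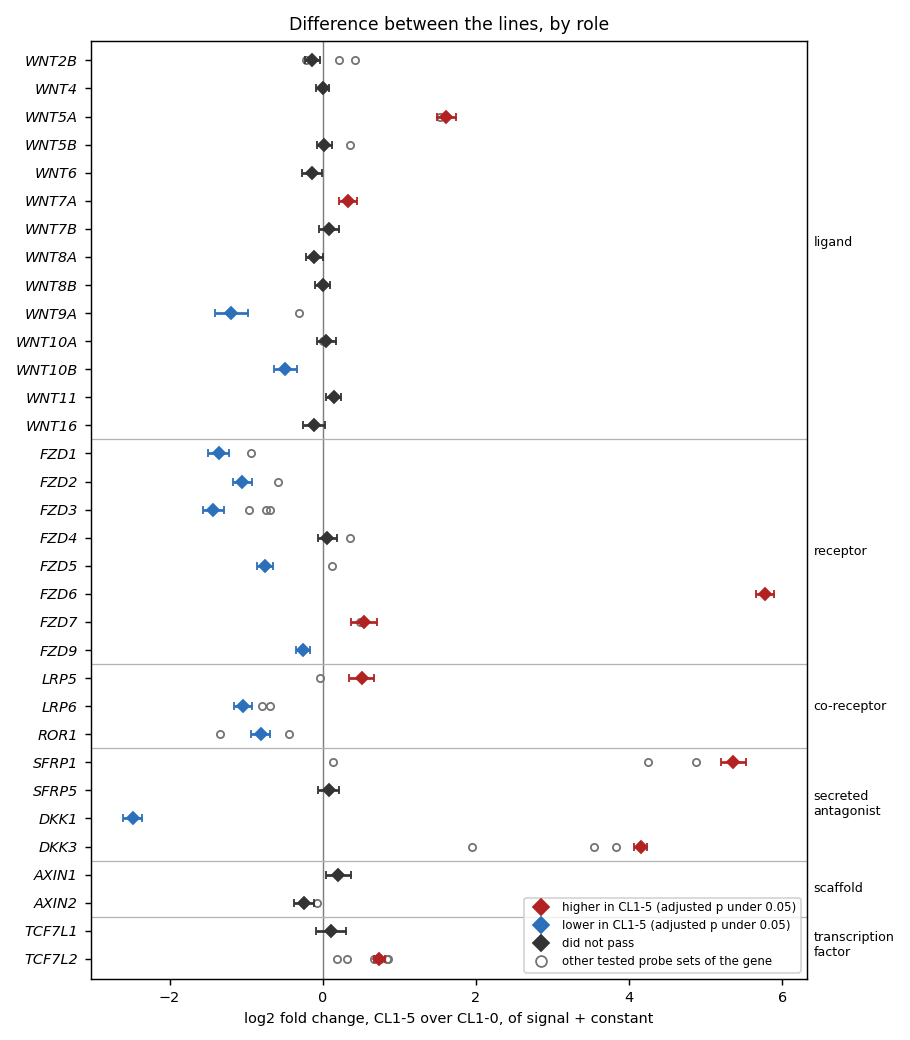
Log2 fold change of CL1-5 over CL1-0 for the 33 tested genes by role (filled diamonds with SE bars, n = 3 arrays in each line), coloured by whether the gene passed, with the other tested probe sets of each gene as open circles. Fitted values of FZD6, SFRP1 and DKK3 lie at 4.15 or above, that of DKK1 at -2.48, and most ligands lie near 0. FZD6, dim in CL1-0, and DKK1 and ROR1, dim in CL1-5, have only the bounds given in the text (at least 40.3-, 4.33- and 1.66-fold), so their fitted points and SE bars are not exact changes.

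The called secreted antagonists changed by at least 2-fold, and they ran in both directions. SFRP1, which carries a Frizzled-like domain and binds Wnt ligands outside the cell, had 2899.6, 3288 and 3885 units in CL1-5, against 63.7, 67.7 and 95.4 in CL1-0. The lowest CL1-5 array lay far above the highest CL1-0 array. Its log2 fold change was 5.36 (SE 0.16, limma adjusted p = 1.6e-08), and 3 of its 4 probe sets were called higher, at 5.36, at 4.87 and, for a probe set dim in CL1-0, at least 14.2-fold. The fourth, near background in both lines with means of 26.8 and 23.6 units in CL1-5 and CL1-0, did not pass (0.14), and with it the mean over probe sets was 3.65.

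In 2 of the other SFRP1 probe sets the CL1-5 arrays were further apart. One had 845, 628 and 1821 units in CL1-5, against 25.7, 17.6 and 42.7 in CL1-0, and another had 370.4, 203 and 689 in CL1-5, against 15.2, 10.1 and 14.8 in CL1-0. In CL1-5, repeat 3 was the highest array of all 4 SFRP1 probe sets, and repeat 3 also had the highest 3′ to 5′ ratio, whose part in these values was not tested. On repeats 1 and 2 alone the log2 fold change of the gene was 5.41, and within repeat 3 it was 5.25.

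DKK3, a divergent Dickkopf protein that, unlike DKK1, is not known as a ligand of LRP5 or LRP6, had 2123, 2048 and 2026 units in CL1-5, against 118, 107 and 105 in CL1-0. It rose by 4.15 (SE 0.08, limma adjusted p = 1.9e-09), with little spread between arrays of a line. All 4 of its tested probe sets were called higher. One other gave a log2 fold change of 3.54, and those dim in CL1-0 were at least 12.6-fold and at least 1.96-fold higher. The mean over probe sets, which includes the dim ones, gave 3.37. The other 2 DKK3 probe sets stayed between 5.55 and 7.56 units on all arrays and were not tested.

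DKK1, which binds LRP5 and LRP6 and blocks the β-catenin branch, ran the other way. It had 15.2, 16.3 and 10.6 units in CL1-5, against 109, 102 and 116.5 in CL1-0. All CL1-5 arrays lay below the background percentile, so DKK1 was at least 4.33-fold lower in CL1-5 (limma adjusted p = 4.7e-07), or at least 2.72-fold with a constant of 32. DKK1 passed the filter only through its CL1-0 arrays, so a call could hardly go the other way. Each of its 3 repeats showed this direction, and DKK1 rests on 1 probe set. Of the other antagonists, SFRP5 did not pass (0.08, adjusted p = 0.68), and SFRP2, FRZB, SFRP4, WIF1, DKK2 and DKK4 failed the filter, with no array of these 6 genes above 19.0 units.

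**Figure D3:**
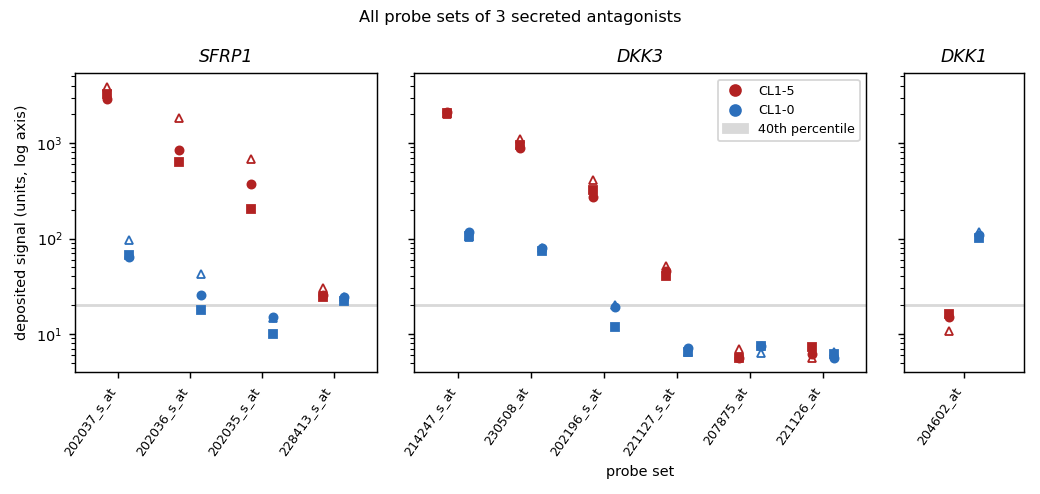
Deposited signal (log axis) of every probe set of SFRP1, DKK3 and DKK1 on each array, with CL1-5 to the left of CL1-0, circles, squares and open triangles for repeats 1, 2 and 3, and the 40th percentile as a grey band. The lines part in 3 of 4 SFRP1 probe sets and 4 of 6 DKK3 probe sets, upward in CL1-5, and in the DKK1 probe set, downward in CL1-5.

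Among the intracellular members, 0 of 2 tested scaffolds and 1 of 2 tested transcription factors (TCF7L2) were called, where 51.6% of all genes tested were. TCF7L2, a TCF/LEF factor that binds β-catenin, had 1582, 1587 and 1479 units in CL1-5, against 894, 966 and 921 in CL1-0, with no overlap. It rose by 0.74 (SE 0.07, limma adjusted p = 3.7e-05), and 4 of its 7 probe sets were called higher, at 0.67 to 0.85. The other 3 gave 0.18 to 0.84 and did not pass. TCF7L1, the family member known mainly as a repressor, had 153, 166 and 246 units in CL1-5, against 141, 171 and 208 in CL1-0, and did not pass (0.11, adjusted p = 0.69).

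LEF1 failed the filter with all 3 of its probe sets, at 5.42 to 25.5 units over all arrays. AXIN1, a scaffold of the β-catenin destruction complex, had 111, 143 and 177 units in CL1-5, against 111, 114 and 142 in CL1-0, and did not pass (0.20, limma adjusted p = 0.35). AXIN2, the scaffold that is also a widely used target of β-catenin, had 54.5, 63.7 and 45.7 units in CL1-5, against 60.1, 73.3 and 63.8 in CL1-0. The lines overlapped, and AXIN2 did not pass (-0.25, limma adjusted p = 0.16). A p that misses the threshold does not show that the levels are equal.

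Counted as probe sets, 66 of the 99 members passed the filter, and 20 were called higher and 18 lower in CL1-5, against 19.8% and 24.6% of all 33777 probe sets tested, or 44.4% in either direction. Of 18 genes with more than 1 tested probe set, none had probe sets called in opposite directions, 7 had all of them called in 1 direction, 9 had some called and 2 had none. The 33 probe sets that failed the filter had no array above 26.1 units. A total of 12 genes had no tested probe set.

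Other genes of the pathway were followed in 7 lists, chosen with earlier results of these data known, of which 91 genes were tested. In CL1-5, 26 of them rose and 31 fell, or 28.6% and 34.1%, against 23.3% and 28.3% of all genes tested. In the list of Wnt release and processing, 2 of 3 genes rose. WLS, the carrier that brings Wnt ligands to the cell surface, had 664, 699 and 655.5 units in CL1-5, against 75.2, 61.2 and 64.4 in CL1-0, a log2 fold change of 3.21 (SE 0.10, limma adjusted p = 2.3e-08). TRABD2A, a membrane protease that cuts Wnt ligands, rose by 1.68 (SE 0.20, adjusted p = 1.2e-04), and NOTUM, which removes their lipid, did not pass (-0.27).

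R-spondins and their LGR receptors, which raise the response to Wnt, and the ligases RNF43 and ZNRF3, which remove Frizzled from the surface, had 4 of 6 tested genes lower, where 28.3% of all genes were, and 0 higher, where 23.3% were. RSPO3 was dim in CL1-5 and at least 1.25-fold lower, and RSPO4 likewise at least 1.61-fold lower. Both passed the filter only through CL1-0, so a call could hardly go the other way. LGR6 fell by 0.68 (SE 0.16, limma adjusted p = 0.0058), and the ligase gene ZNRF3 by 0.32. With the stricter filter at the 60th percentile, 1 gene of this list was lower. Among other inhibitors and co-receptors, 7 of 9 tested genes were lower and 1 higher, against 28.3% and 23.3% of all genes tested. The membrane proteoglycan gene GPC3 had 39.2, 33.6 and 39.5 units in CL1-5, against 392, 358 and 377.5 in CL1-0, a log2 fold change of -3.11 (SE 0.10, adjusted p = 2.6e-08). Its relative GPC4 (-1.90, SE 0.15) and the receptor LRP4 (-1.25, SE 0.13) also fell.

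Of 24 tested genes of the destruction complex and its transducers, 2 were higher and 8 lower, against 23.3% and 28.3% of all genes tested, and 14 did not pass. With the repeat number as a block, though the sample titles name no pairs, 4 were higher and 11 lower. The number higher was 4 without CL1-0 repeat 3 and 5 on repeats 1 and 2 alone. β-Catenin itself, CTNNB1, had 3100, 3004 and 1617 units in CL1-5, against 2458, 2328 and 1938 in CL1-0. In both lines its lowest array was repeat 3. It did not pass (0.15, limma adjusted p = 0.64), but on repeats 1 and 2 alone it was called higher (0.35, adjusted p = 4.9e-04), and within repeat 3 the difference was -0.26. The genes that fell included the ubiquitin ligase subunit BTRC (-0.96, SE 0.12, adjusted p = 2.0e-04), the APC relative APC2 (-0.66, SE 0.11) and the APC-binding protein AMER1, dim in CL1-5 and at least 1.29-fold lower. AMER1 passed the filter only through its CL1-0 arrays.

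Of 15 tested nuclear partners 5 rose and 4 fell, against 23.3% and 28.3% of all genes tested. The co-repressor TLE2 fell by 2.07 (SE 0.12, limma adjusted p = 1.4e-06), the β-catenin co-activator BCL9L rose by 1.13 (SE 0.18) and the chromatin remodeller SMARCA4 by 1.07 (SE 0.15). The number that rose was 3 without CL1-0 repeat 1 or CL1-5 repeat 2. In the planar polarity and calcium branch, 6 of 21 tested genes rose and 7 fell, against the same shares. PRICKLE2, a planar polarity protein, had 221, 202 and 228 units in CL1-5, against 9.36, 9.16 and 13.0 in CL1-0, and was at least 8.35-fold higher (adjusted p = 2.2e-08). It passed the filter only through its CL1-5 arrays, so a call could hardly go the other way. The phospholipase gene PLCB1 rose by 1.58 (SE 0.09), and the kinase gene ROCK2 fell by 1.25 (SE 0.09).

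Genes reported elsewhere as targets of β-catenin and TCF rose in 10 of 17 tested cases and fell in 2, against 23.3% and 28.3% of all genes tested. No member gene was in the list, so AXIN2, which did not pass, DKK1, which fell, and LEF1, which failed the filter, were not counted. The list was chosen with earlier results of these data known, so these shares are no test of the pathway. With the stricter filter at the 60th percentile, 7 of its genes rose. The urokinase receptor gene PLAUR (5.57, SE 0.14, limma adjusted p = 5.4e-09), the cyclin gene CCND1 (2.72, SE 0.11, adjusted p = 1.1e-07) and the AP-1 subunit gene FOSL1 (2.51, SE 0.16) had the largest increases, and all 3 are known to respond to other pathways as well. Of the targets that feed back on the pathway, NKD1 (0.25), NOTUM and RNF43 (0.08) did not pass, ZNRF3 fell by 0.32, and APCDD1 failed the filter, as did LGR5, CCN4 and MMP7. Among other listed targets, SP5 rose by 0.64 (SE 0.10, limma adjusted p = 6.5e-04). TNFRSF19 and ASCL2, dim in CL1-0, passed the filter through CL1-5 and were at least 1.52-fold and at least 1.19-fold higher. CDX1 (0.012) and EPHB3 (0.035) did not pass, and BIRC5 fell by 0.98 (SE 0.10, limma adjusted p = 4.5e-05). The number that fell was 1 without CL1-0 repeat 1 or 3 or CL1-5 repeat 2.

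**Figure D4:**
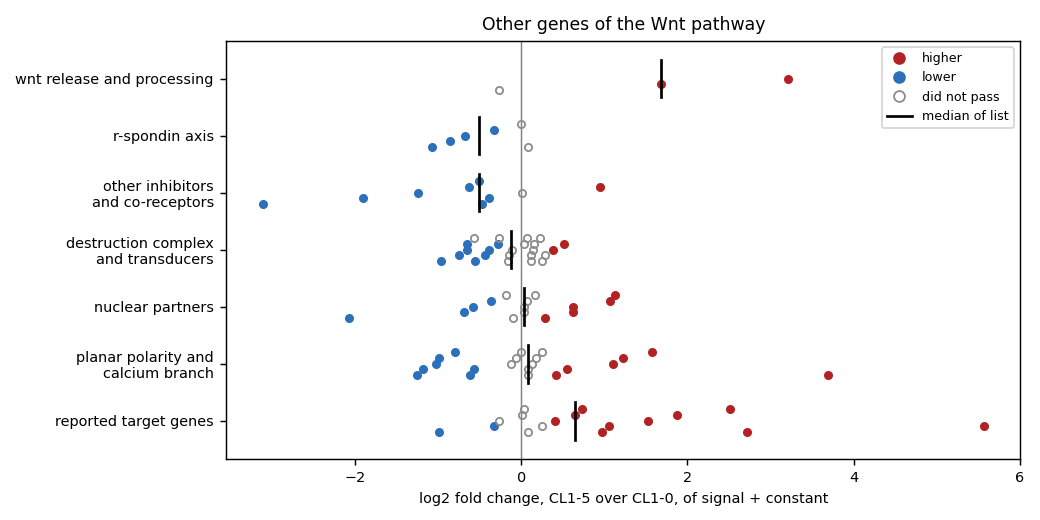
Log2 fold change of CL1-5 over CL1-0 for each tested gene of the 7 other pathway lists, as points coloured by whether the gene passed, spread vertically for legibility, with the list's median as a black bar. The medians run from -0.51 for other inhibitors and co-receptors to 1.68 for Wnt release, against -0.033 over all genes tested.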

How the data were processed

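The deposited values are probe set intensity on a linear scale for 6 one-colour arrays, normalized by the authors, and the submitters' processing notes name MAS5. The sources used here give neither its version nor later steps. The platform annotation supplied the gene symbols, and 41037 of 41091 with 1 symbol were matched to RefSeq by gene identifier.

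The 10th percentile of all values, 6.85, was added before taking log2. Probe sets above the 40th percentile of their array on at least 3 arrays were kept. Each gene was taken through its probe set of highest mean, without suffix x where another passed. R 4.3.3 and limma 3.58.1 (lmFit, eBayes with a variance trend) compared the lines over 14828 genes and, separately, 33777 probe sets, with Benjamini-Hochberg adjustment at 0.05. Where a line was dim, the fold is a bound: the bright line's mean over, per array, the higher of percentile and value. Steps were tested on simulated data.

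Members and lists were chosen with earlier results of these data known. Called members with a log2 change of at least 1 were described array by array, and up to 3 called genes of largest fitted change were named in each other list. Other members, markers and pathway genes given with values were chosen after these were seen. Across genes, same-numbered arrays of the lines deviated together from their line means (r of 0.475, 0.280 and 0.649 for repeats 1, 2 and 3). The sample titles name no pairs, so the numbers were taken as pairs in an alternative fit only. The main fit therefore counts this shared variation as spread between arrays. The p-values reflect only how repeats vary within the lines, with the spread of each gene moderated by that of all genes or probe sets tested. Alternatives changed the constant, filter, scaling, variance trend, probe sets, block, arrays and threshold. Their runs on the other lists were added after the data were seen.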

Additional observations from a re-analysis of the deposited data

How the results depend on the processing

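All 10 members changed at least 2-fold kept their direction and call under all 17 alternatives in which they were tested, and 13 of the 18 called members did. The others, WNT7A, WNT10B, FZD7, FZD9 and LRP5, kept their direction but lost the call in at least 1. Under the adjusted p threshold of 0.01 the number higher was 5, and without single arrays it ran from 5 to 7, against 8 in the report. The number at least 2-fold lower was 3 with a constant of 32, 2 with the mean of probe sets, and 4 to 6 without single arrays. With the stricter filter at the 60th percentile, 10 probe sets were lower, against 18. In the fit with a replicate block, 8 member genes were higher and 10 lower, and 23 and 20 probe sets, with no call of a gene changed, whereas in the destruction complex list 4 genes were higher and 11 lower, against 2 and 8.

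Some members that did not pass changed sign around 0. Without single arrays, log2 fold changes ran from -0.024 to 0.019 for WNT4, -0.032 to 0.074 for WNT5B, -0.034 to 0.17 for WNT7B, -0.041 to 0.064 for WNT8B, -0.078 to 0.13 for WNT10A, -0.0079 to 0.18 for FZD4, -0.014 to 0.22 for SFRP5 and -0.097 to 0.24 for TCF7L1. On repeats 1 and 2 alone they were -0.024 for WNT5B, 0.0073 for WNT8B and -0.078 for WNT10A. With quantile normalization they were 0.0022 for WNT4 and 0.00100 for WNT8B, and with the mean of probe sets 0.070 for WNT2B. The causes were not tested. Signals near or below background in at least 1 line limit WNT7A, WNT9A, FZD9, ROR1, FZD6 and DKK1, among others.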

Other observations

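Repeat 3 was the highest array in both lines for 8 of the 33 tested members, namely WNT5A, FZD1, FZD2, FZD5, FZD7, SFRP1, AXIN1 and TCF7L1, or 24.2%, against 24.0% of all genes tested. It was the lowest in both lines for 8 members, or 24.2%, against 25.8% of all genes tested.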
